A study of Mus musculus with 45 samples.

Results

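The genes described here are the dual-specificity phosphatases (Dusp) that act on MAP kinases: Dusp1, Dusp2, Dusp4, Dusp5, Dusp6, Dusp7, Dusp8, Dusp10, Dusp14 and Dusp16. They were taken from the deposited count table as the rows whose Ensembl identifier maps to these 10 mouse symbols, which are 10 of 54532 gene rows. All 10 had reads in every library, and 37048 rows of the whole table had at least 1 read in any library. The rows were picked by symbol, but the list of symbols was chosen with earlier results of these data known.

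MAP kinases (ERK, JNK and p38) are switched on when an upstream kinase phosphorylates a threonine and a tyrosine in their activation loop. Dusp phosphatases remove both phosphates and so return the kinase to its inactive state. In neurons, calcium entry through synaptic NMDA receptors and voltage-gated channels activates the ERK cascade, and several Dusp genes are themselves transcribed in response to that activity, which makes them textbook negative feedback regulators. Dusp1, Dusp2, Dusp4 and Dusp5 encode nuclear enzymes, Dusp6 and Dusp7 encode cytoplasmic enzymes that prefer ERK, Dusp8, Dusp10 and Dusp16 encode enzymes that prefer the stress kinases JNK and p38, and Dusp14 encodes a small enzyme without the MAP kinase-binding domain.

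RNA-seq was performed on primary hippocampal neurons from newborn C57BL/6N mice, grown with rat serum and with AraC, an inhibitor of dividing cells. There were 9 conditions, and each of 5 independent culture preparations (numbered 1, 3, 6, 7 and 8) gave 1 library to every condition, 45 libraries in all. Untreated cultures were the control. Bicuculline (Bic, 50 µM), which blocks GABA type A receptors and thereby sets off action potential (AP) firing, was given for 0.5, 1 or 2 h. The short protocol (SP) began with 0.5 h of Bic, after which tetrodotoxin (TTX, 1 µM), a sodium channel blocker that stops AP firing, was added for another 0.5 h, alone or together with bath-applied NMDA (30 µM), while Bic stayed on the cells. The long protocol (LP) had the same steps of 1 h each, and a further arm in which TBOA (50 µM), an inhibitor of glutamate uptake that lets synaptic glutamate spill over, took the place of TTX. The passive effect is TTX compared to uninterrupted Bic of the same total length, the active effect is TTX/NMDA compared to TTX, the total effect is TTX/NMDA compared to Bic, and the spillover effect is TBOA compared to 2 h of Bic.

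Library totals ran from 11316580 to 81129276 reads in genes, with a median of 26239614. Levels are given as reads of a gene per 1000000 reads of the library (CPM, with TMM-adjusted library sizes), as mean ± SD of the 5 preparations, and as CPM per kilobase of exon (CPM/kb) where genes are compared with each other. A gene is called higher or lower where the adjusted p of edgeR's quasi-likelihood test, over all genes tested, is under 0.05, and each log2 fold change is given ± its standard error. Shares of all genes called are over every gene with at least 1 read in the comparison, 32852 in the LP active effect. Only 13592 genes had a mean of at least 1 CPM, and shares among genes at the members' levels were not computed. No 2 libraries were identical. The 6 neuronal markers (Rbfox3, Map2, Snap25, Syt1, Slc17a7 and Gad1) had summed mean levels between 5546 and 6745 CPM across conditions. The sum of 5 astrocyte markers was between 499.8 and 685 CPM in 8 conditions and 999 CPM in LP TTX/NMDA, that of 4 oligodendrocyte markers between 39.1 and 55.6 CPM, and that of 4 microglial markers between 5.13 and 6.78 CPM. No marker was at 0 in any condition. The cultures were thus mixed, and fewer cells of a type and less RNA per cell cannot be told apart in such bulk libraries.

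Scaled by exon length, the 10 genes covered a wide range. In untreated neurons Dusp8 was the most abundant at 48.4 ± 2.33 CPM/kb, followed by Dusp4 at 20.5, Dusp6 at 16.8, Dusp7 at 13.1 and Dusp14 at 9.19 CPM/kb. Dusp1 (5.42 CPM/kb) and Dusp5 (4.49 CPM/kb) came next, and Dusp10 (1.88), Dusp16 (0.846) and Dusp2 (0.658 CPM/kb) were the least abundant. After 2 h of Bic the order was different: Dusp4 led at 76.4 ± 7.23 CPM/kb, ahead of Dusp6 (64.03), Dusp8 (54.4), Dusp1 (52.8) and Dusp14 (35.6 CPM/kb), while Dusp7, the fourth in the control, was now the seventh. The span between the highest and the lowest condition mean was 12.04-fold for Dusp1 and between 3.43-fold and 4.25-fold for Dusp4, Dusp5, Dusp6 and Dusp14. It was 2.70-fold for Dusp16, 1.96-fold for Dusp10, 1.85-fold for Dusp7, 1.602-fold for Dusp2 and 1.43-fold for Dusp8.

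**Figure D1:**
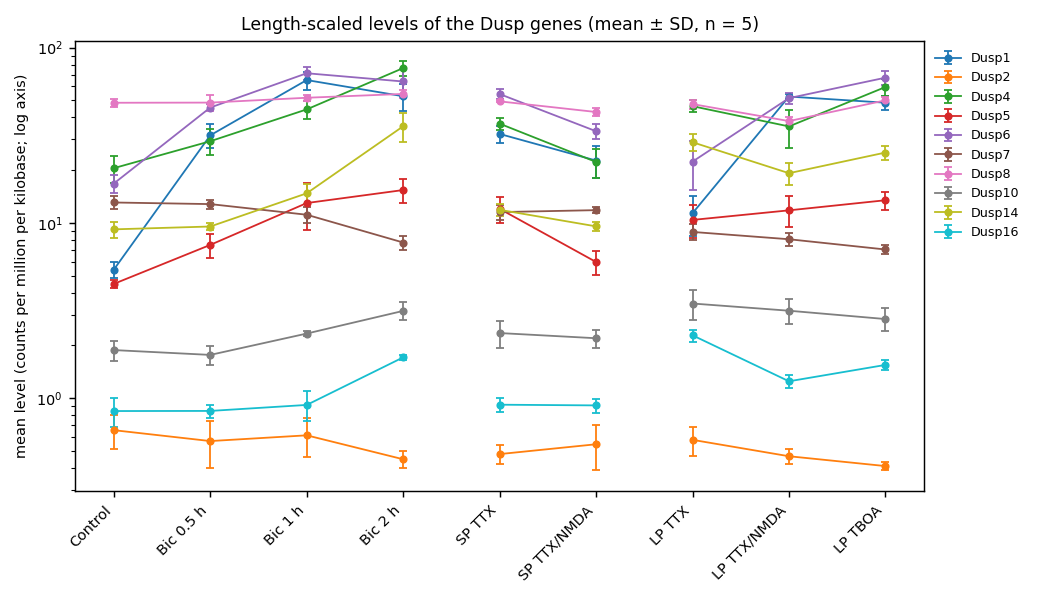
Mean level of each Dusp gene in CPM per kilobase of exon (logarithmic y axis) in the 9 conditions (x axis); points are means and bars the SD of 5 preparations, and lines join the conditions of one protocol only to guide the eye. Dusp8 stays between 38.1 and 54.4 CPM/kb, whereas Dusp1 goes from 5.42 CPM/kb in the control to 65.3 after 1 h of Bic.

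The members lie on 10 chromosomes (GRCm38) and are all protein-coding. On the plus strand are Dusp2 (chr2:127336159-127338376), Dusp4 (chr8:34807297-34819894), Dusp5 (chr19:53529109-53542431), Dusp6 (chr10:99263231-99267489), Dusp7 (chr9:106368632-106375724) and Dusp10 (chr1:184013302-184075636). On the minus strand are Dusp1 (chr17:26505590-26562128), Dusp8 (chr7:142079490-142095843), Dusp14 (chr11:84048041-84069261) and Dusp16 (chr6:134715468-134792625). The Dusp1 model overlaps 2 other models on its own strand, with which it shares 0 exonic bases. Antisense models overlap Dusp1, Dusp5, Dusp8, Dusp10 and Dusp16, and the reads were counted by strand.

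The promoter sequences of 4 members are shown because Dusp1, Dusp5 and Dusp6 were among the first genes to change with AP firing and Dusp8 was abundant but moved little. The 250 bases before the RefSeq start (GRCm38.p6) were found for 9 of the 10 genes, Dusp4 excepted, and bases in annotated exons of the same strand were left out of the printed runs. Each run reads 5′ to 3′ on the strand of the gene. Capitals mark the matches to a set of motifs searched on both strands: the cAMP response element (CRE, TGACGTCA) and its core (TGACG, also part of the full CRE), bound by CREB, and the CArG box, bound by SRF.
Dusp1, chr17:26508520-26508722, minus strand: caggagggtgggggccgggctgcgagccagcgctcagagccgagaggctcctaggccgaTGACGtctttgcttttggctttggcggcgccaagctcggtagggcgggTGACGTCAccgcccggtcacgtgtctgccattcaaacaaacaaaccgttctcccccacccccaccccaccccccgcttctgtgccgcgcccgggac
Dusp5, chr19:53528895-53529108, plus strand: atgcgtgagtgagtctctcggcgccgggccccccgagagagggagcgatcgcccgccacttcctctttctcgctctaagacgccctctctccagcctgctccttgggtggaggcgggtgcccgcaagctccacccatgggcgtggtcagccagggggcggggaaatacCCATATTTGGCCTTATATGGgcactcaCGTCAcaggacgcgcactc
Dusp6, chr10:99262981-99263230, plus strand: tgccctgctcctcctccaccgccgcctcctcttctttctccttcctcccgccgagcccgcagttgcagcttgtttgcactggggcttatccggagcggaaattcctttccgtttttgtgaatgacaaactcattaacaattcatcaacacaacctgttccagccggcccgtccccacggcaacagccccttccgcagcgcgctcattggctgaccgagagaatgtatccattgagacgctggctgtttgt
Dusp8, chr7:142095285-142095534, minus strand: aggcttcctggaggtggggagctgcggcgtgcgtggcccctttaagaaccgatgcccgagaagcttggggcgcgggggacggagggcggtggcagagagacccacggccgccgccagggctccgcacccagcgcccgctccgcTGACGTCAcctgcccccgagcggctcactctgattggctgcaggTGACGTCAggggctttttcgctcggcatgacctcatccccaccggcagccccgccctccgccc
The full CRE was found in the windows of Dusp1, 143 to 136 bases before the start, and of Dusp8, at 107 to 100 and at 63 to 56 bases before it, and 1.55% of all 32851 promoter windows of the same length hold it. Dusp5 carries 2 CArG boxes side by side, from 82 to 63 bases before its start, with a CRE core on the other strand at 55 to 51, and 1.47% of all windows hold a CArG box. The CRE core stands in Dusp1, Dusp5, Dusp8 and Dusp16 (17.8% of all windows). An EGR motif (GCGNGGGCG) was found in Dusp2 and Dusp16 (4.70% of all windows) and an ETS motif (CCGGAA) in Dusp14 (12% of all windows). The AP-1 motif (TGANTCA) was found in none of the 9 windows and in 6.75% of all. None of these letters occurred in the windows of Dusp6, Dusp7 and Dusp10. The RefSeq starts of Dusp1, Dusp5, Dusp8, Dusp10 and Dusp14 used here lie inside longer Ensembl gene models, so that other starts of these genes have windows not searched here. For Dusp8 and Dusp16 the bases that follow the RefSeq start were not found as a whole run in an annotated transcript. A match is only a match of letters in this window.

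The first question was how the Dusp genes respond to AP firing over time. Dusp1, Dusp4, Dusp5 and Dusp6, which encode the nuclear enzymes other than Dusp2 and the cytoplasmic ERK phosphatase, rose within 0.5 h of Bic. Dusp14 joined them at 1 h, and Dusp10 and Dusp16 at 2 h, when Dusp7 had fallen. Of the 10 members, 4 were called higher and 0 lower at 0.5 h, where 0.289% of all genes tested were called higher and 0 lower by edgeR. None of the members fell at an unadjusted p under 0.05 or with DESeq2 at that time. At 1 h, 5 were called higher and 0 lower, against 0.965% higher and 0.195% lower among all genes (1 member, Dusp7, was lower at an unadjusted p under 0.05, and 0 were called lower with DESeq2). At 2 h, 7 were called higher and 1 lower, against 4.24% and 4.78%. The median log2 fold change of the 10 genes was 0.03, 0.49 and 1.39 at the 3 times, and that of all genes tested was -0.01 at each.

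Dusp1, the inducible nuclear phosphatase of ERK, JNK and p38, had the largest response of the 10. In the control libraries of preparations 1, 3, 6, 7 and 8 it stood at 18.3, 16.6, 17.4, 21.1 and 16.3 CPM. After 0.5 h of Bic these were 80.8, 114, 106, 124 and 98.3 CPM, and after 1 h 233, 175, 208, 236 and 228 CPM. Every Bic library lay above every control library, and every 1 h library above every 0.5 h library. The change from control was 5.83-fold at 0.5 h (log2 fold change 2.54 ± 0.10, adjusted p = 5.6e-28) and 12.04-fold at 1 h (log2 fold change 3.58 ± 0.10, adjusted p = 4.1e-28). At 2 h the libraries read 201, 167, 208, 160.4 and 136 CPM, still 9.73-fold above control (log2 fold change 3.26 ± 0.10, adjusted p = 3.6e-23). The 2 h level was lower than the 1 h level in 4 of 5 preparations, with overlapping ranges. That step was called (log2 fold change -0.31 ± 0.09, adjusted p = 0.022), but not with DESeq2 (adjusted p = 0.068), among expression-filtered genes (adjusted p = 0.099) or without preparation 7 (adjusted p = 0.1).

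Dusp6, the cytoplasmic ERK phosphatase, followed a like course at a higher starting level. Its control libraries held 63.9, 49.4, 48.8, 49.3 and 51.3 CPM, its 0.5 h libraries 140.0, 135, 146, 139 and 152 CPM and its 1 h libraries 248, 199, 227, 209 and 235 CPM. The 3 groups did not overlap. The rise was 2.71-fold at 0.5 h (log2 fold change 1.44 ± 0.09, adjusted p = 2.2e-19) and 4.25-fold at 1 h (log2 fold change 2.09 ± 0.09, adjusted p = 1.4e-21). The 2 h libraries (223, 199, 245, 186 and 150.1 CPM) overlapped those of 1 h, and the step between these times was not called (log2 fold change -0.16 ± 0.09, adjusted p = 0.44). Dusp7, the close relative of Dusp6, went the other way: its mean was 43.9 ± 3.76 CPM in the control, 37.4 ± 3.83 at 1 h and 25.9 ± 2.28 CPM at 2 h. All 5 preparations had less Dusp7 at 2 h than in the control, without overlap (log2 fold change -0.77 ± 0.08, adjusted p = 1.3e-08). The smaller difference at 1 h was called only in the fit paired by preparation (log2 fold change -0.24, adjusted p = 0.029; unpaired 0.36).

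Dusp4, a nuclear phosphatase of ERK and JNK, was higher at each successive time. The control libraries gave 49.4, 44.7, 66.96, 65.4 and 54.8 CPM and the 0.5 h libraries 58.4, 81.2, 83.99, 95.1 and 81.8 CPM. These groups overlapped, although each preparation was higher with Bic. Dusp4 was called at 0.5 h (log2 fold change 0.51 ± 0.10, adjusted p = 0.0024), but not among expression-filtered genes (adjusted p = 0.17). At 1 h the libraries held 116, 98.5, 129.6, 128 and 135 CPM and at 2 h 181, 206, 236, 217 and 206 CPM. The 2 h libraries were all above the 1 h libraries (log2 fold change 0.78 ± 0.08, adjusted p = 2.0e-09), and stood 3.72-fold above control (log2 fold change 1.88 ± 0.10, adjusted p = 4.1e-17).

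Dusp5, a nuclear phosphatase selective for ERK, was far less abundant and rose early as well. It was measured at 11.2, 10.2, 12.01, 10.9 and 11.2 CPM in the control, 15.6, 16.8, 20.5, 17.01 and 22.7 CPM after 0.5 h and 27.3, 25.9, 29.6, 28.8 and 48.9 CPM after 1 h. Preparation 8 stood apart at 1 h, and all 3 groups were separate. The rise was 1.67-fold at 0.5 h (log2 fold change 0.74 ± 0.11, adjusted p = 7.6e-06) and 2.89-fold at 1 h (log2 fold change 1.52 ± 0.12, adjusted p = 1.7e-12). The 2 h libraries held 33.8, 41.1, 43.5, 30.2 and 41.8 CPM and overlapped those of 1 h. The step from 1 to 2 h was not called (log2 fold change 0.25 ± 0.12, adjusted p = 0.35), but it was with pairing by preparation (log2 fold change 0.28, adjusted p = 0.033) and without preparation 8 (log2 fold change 0.41, adjusted p = 6.6e-05). Dusp2, known as an inducible phosphatase of immune cells, was near 1 CPM in every condition (1.32 ± 0.290 CPM in the control and 0.899 ± 0.101 after 2 h of Bic) and passed the test in none of the 16 pairwise comparisons.

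Dusp14 and Dusp16 rose late. Dusp14 read 18.9, 17.4, 19.6, 18.6 and 14.9 CPM in the control and 17.99, 18.4, 18.9, 19.9 and 17.6 CPM after 0.5 h, which overlapped. After 1 h the libraries held 32.05, 22.4, 29.2, 30.5 and 29.4 CPM and after 2 h 85.8, 66.4, 76.2, 65.8 and 51.6 CPM. The 2 h libraries were all above the 1 h libraries, and these above the control. The change from control was 1.61-fold at 1 h (log2 fold change 0.67 ± 0.10, adjusted p = 8.0e-06) and 3.87-fold at 2 h (log2 fold change 1.94 ± 0.10, adjusted p = 9.2e-17). Dusp16, which prefers JNK and p38, gave 5.57, 6.25, 5.90, 6.46 and 8.80 CPM in the control, 5.74, 7.47, 6.36, 6.84 and 9.34 CPM after 1 h and 13.6, 13.5, 13.8, 13.4 and 12.6 CPM after 2 h. Only the 2 h group was separate from the control (log2 fold change 1.00 ± 0.11, adjusted p = 2.3e-08). Most of both changes fell between 1 and 2 h, when Dusp14 rose by a further 2.41-fold and Dusp16 by 1.87-fold.

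Dusp10 and Dusp8, the other members that prefer the stress kinases, moved less. Dusp10 was at 5.73 ± 0.756 CPM in the control and at 9.58 ± 1.12 CPM after 2 h (log2 fold change 0.73 ± 0.12, adjusted p = 2.6e-05). The step from 1 to 2 h was called (log2 fold change 0.42 ± 0.10, adjusted p = 0.0087), but not without preparation 1 (adjusted p = 0.058) or preparation 3 (adjusted p = 0.064). From 0.5 to 1 h all 5 preparations were higher without a call (adjusted p = 0.24), and pairing gave one (log2 fold change 0.40, adjusted p = 0.036). Dusp8, which carries 2 full CREs in the promoter shown, was at 236 ± 11.3 CPM in the control, 236 ± 24.6 at 0.5 h and 265 ± 14.03 CPM at 2 h. The difference at 2 h was not called (log2 fold change 0.16 ± 0.07, adjusted p = 0.24), although 5 of 5 preparations were higher, DESeq2 called it (adjusted p = 0.015), and so did the paired fit (log2 fold change 0.16, adjusted p = 0.032). Between 0.5 and 1 h, 5 of the 10 members (Dusp1, Dusp4, Dusp5, Dusp6 and Dusp14) were called higher, with 0.634% of all genes, and 0 lower with edgeR or DESeq2 (1 at an unadjusted p under 0.05, Dusp7). Between 1 and 2 h, 4 (Dusp4, Dusp10, Dusp14 and Dusp16) were called higher and 2 (Dusp1 and Dusp7) lower, with 2.53% and 2.8% of all genes.

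**Figure D2:**
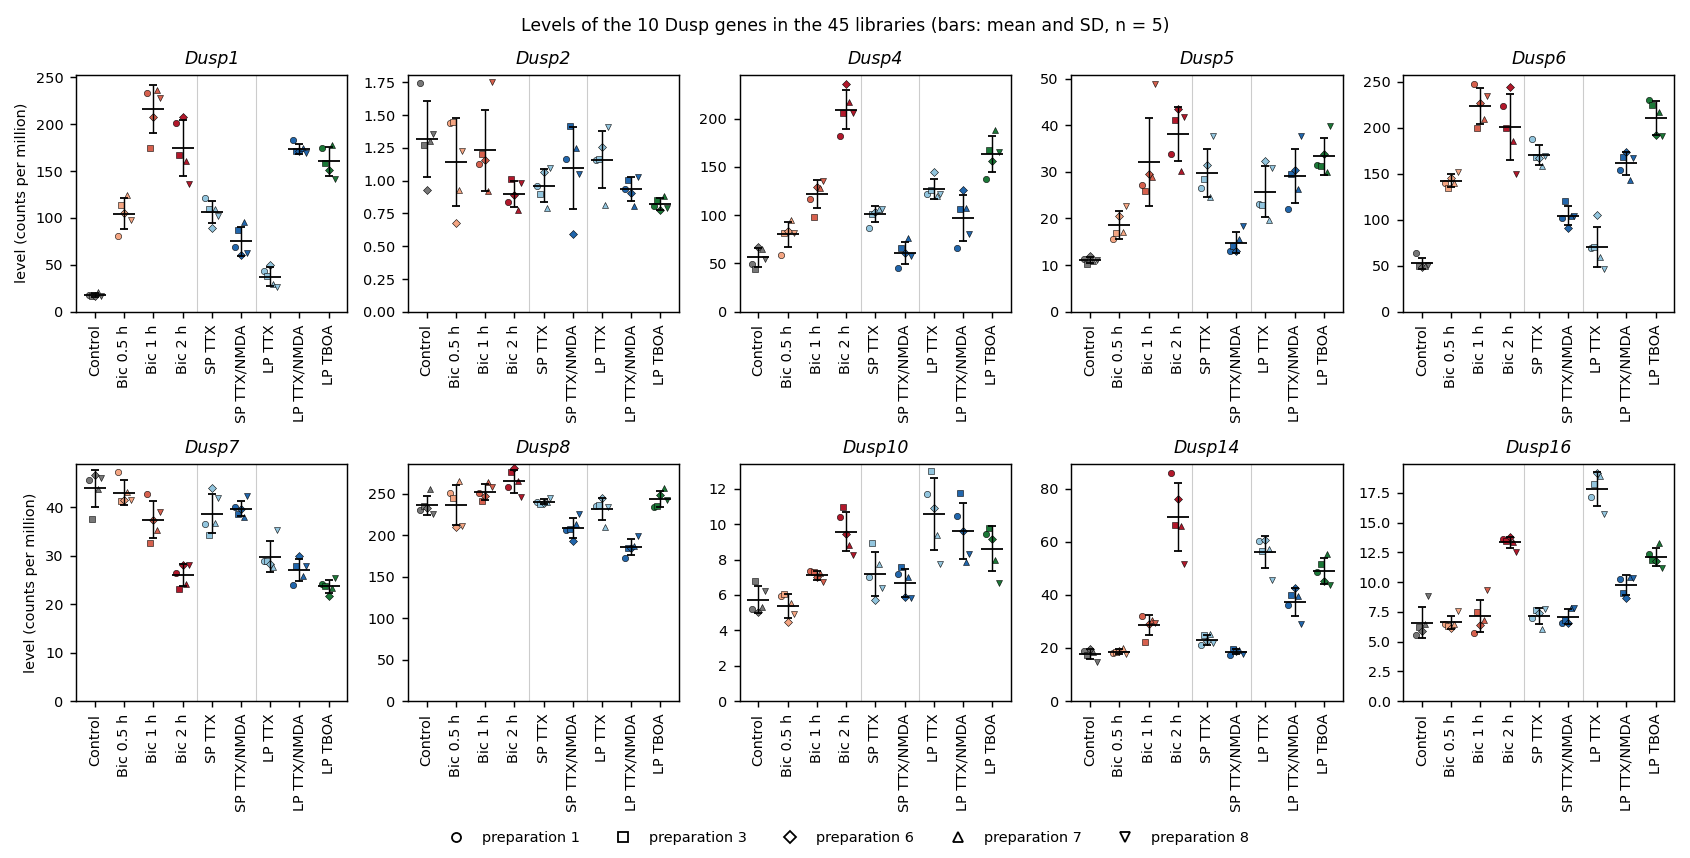
Level of each Dusp gene in CPM (y axis from 0, one panel per gene) in the 9 conditions (x axis); each symbol is 1 library, its shape the culture preparation, and the bars are mean and SD of 5. Dusp1 and Dusp6 peak at 1 h of Bic, are low in LP TTX and high again in LP TTX/NMDA, whereas Dusp16 is highest in LP TTX (17.8 ± 1.41 CPM).

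The passive effect asks what happened to these transcripts when AP firing was stopped. In the SP, Dusp1 and Dusp6 were lower with TTX than with 1 h of uninterrupted Bic. In the LP, Dusp1, Dusp4, Dusp5, Dusp6, Dusp8 and Dusp14 were lower than with 2 h of Bic, and Dusp16 was higher. The counts were 0 higher and 2 lower of 10 in the SP (0.0157% and 0.252% of all genes) and 1 higher and 6 lower in the LP (3.03% and 1.62%). No member was higher in the SP at an unadjusted p under 0.05 or with DESeq2. In the SP the members had a median log2 fold change of -0.19 and all genes one of 0.00. The corresponding medians of the LP were -0.26 and 0.01. Of the 5 astrocyte markers 0 were called in either protocol by edgeR or DESeq2 (2 were higher in the SP and 0 in the LP at an unadjusted p under 0.05).

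After the short TTX treatment, Dusp1 was at 122, 109, 89.5, 109 and 102 CPM, below every 1 h Bic library. It stood at 49.8% ± 7.89 (SD, n = 5) of the level of the same preparation under 1 h of Bic (log2 fold change -1.03 ± 0.08, adjusted p = 9.8e-12). Dusp6 read 188, 168, 167, 158 and 169 CPM, also without overlap, at 76.3% ± 4.61 of its Bic level (log2 fold change -0.40 ± 0.07, adjusted p = 0.0013). Dusp4 (log2 fold change -0.28, adjusted p = 0.21) and Dusp14 (log2 fold change -0.32, adjusted p = 0.16) were lower in 4 of 5 preparations and were not called. Without preparation 3 both were, at log2 fold changes of -0.34 (adjusted p = 0.0091) and -0.42 (adjusted p = 0.0031), which makes 4 lower members.

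The long TTX treatment left Dusp1 at 43.4, 38.4, 50.1, 29.96 and 26.2 CPM, which is 21.3% ± 2.31 of the 2 h Bic level (log2 fold change -2.23 ± 0.12, adjusted p = 4.0e-15). Dusp6 stood at 69.8, 69.9, 105, 59.3 and 46.3 CPM, or 34.4% ± 5.01 of that level (log2 fold change -1.53 ± 0.13, adjusted p = 3.1e-10). Neither group overlapped with 2 h of Bic. Expressed as the share of the Bic-induced rise over control, what remained in LP TTX was 11.98% ± 4.51 for Dusp1 and 9.66% ± 12.6 for Dusp6. For Dusp4 the share was 46.3% ± 6.99, for Dusp5 53.4% ± 10.6 and for Dusp14 75.98% ± 8.79 (SD, n = 5).

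Dusp4 (122, 126, 145, 120.2 and 122 CPM in LP TTX) was below all its 2 h Bic libraries (log2 fold change -0.73 ± 0.07, adjusted p = 2.7e-09). Dusp5 (23.1, 22.9, 32.2, 19.7 and 30.8 CPM) was lower in each of the 5 preparations, with overlapping groups (log2 fold change -0.58 ± 0.11, adjusted p = 0.00046). Dusp14 (60.4, 56.5, 60.8, 57.1 and 45.7 CPM) was lower in 5 of 5 preparations as well. Its call (log2 fold change -0.31 ± 0.09, adjusted p = 0.043) was lost with DESeq2 (adjusted p = 0.052), among expression-filtered genes (adjusted p = 0.092) and without preparation 1 (adjusted p = 0.16). Dusp8 fell from 265 ± 14.03 to 232 ± 13.1 CPM (log2 fold change -0.20 ± 0.06, adjusted p = 0.043), a call lost without preparation 1, 3, 6 or 7 (adjusted p = 0.072, 0.19, 0.12 and 0.32).

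Dusp16 was the member that rose with the block of firing. Its LP TTX libraries held 17.2, 18.2, 19.1, 18.9 and 15.7 CPM, all above the 2 h Bic libraries (log2 fold change 0.41 ± 0.08, adjusted p = 0.0017), and LP TTX was its highest condition. Dusp10 (10.6 ± 2.03 CPM in LP TTX) also had its highest mean there, without a difference from 2 h of Bic that passed the test (log2 fold change 0.13 ± 0.12, adjusted p = 0.61). Dusp7 was higher than with 2 h of Bic in 5 of 5 preparations, a difference called with pairing (log2 fold change 0.18, adjusted p = 0.013) and not without it (adjusted p = 0.21).

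TTX was added while levels were still changing, so the same libraries were also set against the level at the time of its addition. In the LP, the level after 1 h of TTX was compared to 1 h of Bic. Dusp1 went down to 17.8% ± 5.56 of that level, with a range of 11.5 to 24.1% (log2 fold change -2.54 ± 0.11, adjusted p = 4.0e-20), and Dusp6 to 31.5% ± 9.87, with a range of 19.7 to 46.2% (log2 fold change -1.69 ± 0.11, adjusted p = 1.9e-14). Dusp4 stayed near its starting level at 106% ± 14.96 (log2 fold change 0.05 ± 0.07, adjusted p = 0.74). Dusp14 rose to 199% ± 35.8 (log2 fold change 0.96 ± 0.09, adjusted p = 5.4e-11) and Dusp16 to 258% ± 55.1 (log2 fold change 1.32 ± 0.11, adjusted p = 4.7e-12) while firing was blocked, and Dusp10 to 148% ± 24.95 (log2 fold change 0.56 ± 0.12, adjusted p = 0.0011). In all, 3 members were called higher and 3 lower (Dusp1, Dusp6 and Dusp7), against 4.34% and 2.85% of all genes.

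Dusp7 fell after TTX (log2 fold change -0.33 ± 0.08, adjusted p = 0.0054), though not without preparation 1 (adjusted p = 0.068). With pairing by preparation, 5 members were lower, since Dusp5 (log2 fold change -0.32, adjusted p = 0.014; unpaired 0.11) and Dusp8 (log2 fold change -0.14, adjusted p = 0.048; unpaired 0.29) were added. Dusp5 was also called lower without preparation 3 (adjusted p = 0.028) or 6 (adjusted p = 0.00037).

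In the SP, 0.5 h of TTX was compared to 0.5 h of Bic. Dusp5 was the 1 member called, and it rose to 161% ± 11.4 of its starting level (log2 fold change 0.68 ± 0.10, adjusted p = 3.6e-06), with libraries at 26.6, 28.5, 31.4, 24.5 and 37.8 CPM. No member was lower with edgeR, with DESeq2 or at an unadjusted p under 0.05. The background was 0.296% higher and 0.0191% lower. Dusp1 stood at 105% ± 26.8 of its level at TTX addition (log2 fold change 0.02 ± 0.08, adjusted p = 1). Dusp4 was higher in 5 of 5 preparations and was called with pairing (log2 fold change 0.33, adjusted p = 0.027; unpaired 0.07) and without preparation 6, 7 or 8 (adjusted p = 0.01, 0.0049 and 0.049). Dusp6 was higher in 5 of 5 preparations and was called with DESeq2 (log2 fold change 0.23, adjusted p = 0.049; edgeR 0.22).

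**Figure D3:**
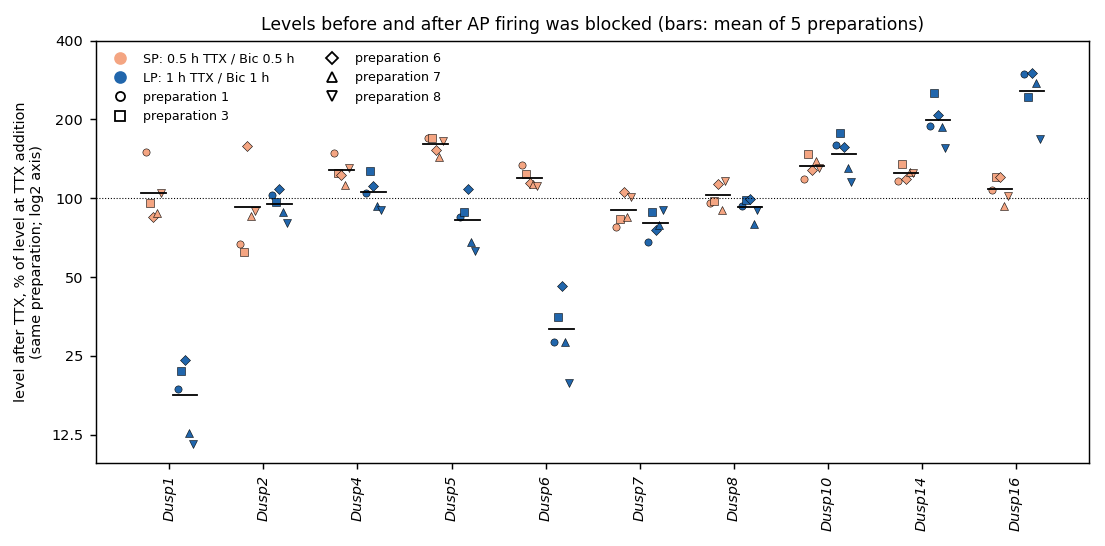
Level after TTX as a percentage of the level in the same preparation at the time TTX was added (log2 y axis) for each gene (x axis), after 0.5 h in the short protocol (orange) and 1 h in the long protocol (blue); symbols are preparations and bars means of 5. In the long protocol all 5 preparations lie below 100% for Dusp1 and Dusp6 and above it for Dusp10, Dusp14 and Dusp16.

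The passive effect itself differed between protocols for a few members. The test of the difference (LP minus SP, 20 libraries) called Dusp1 (log2 difference -1.21 ± 0.16, adjusted p = 5.8e-06) and Dusp6 (log2 difference -1.14 ± 0.16, adjusted p = 4.6e-05), whose loss with TTX was larger in the LP. Dusp4 was called at the border (log2 difference -0.46 ± 0.11, adjusted p = 0.045), and not among expression-filtered genes (adjusted p = 0.076) or without preparation 3 (adjusted p = 0.25) or 7 (adjusted p = 0.19). Dusp5 was called with pairing (log2 difference -0.50, adjusted p = 0.041; unpaired 0.74) and without preparation 8 (log2 difference -0.61, adjusted p = 0.012). These are 3 of 10 members with a negative difference and 0 with a positive one, against 0.0699% and 0.187% of all genes. At an unadjusted p under 0.05, 2 members had a positive difference, and with DESeq2 0 did.

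The active effect asks what bath NMDA added on top of the block of firing. It shares the TTX libraries with the passive effect, and the total effect shares its libraries with both. In the SP, Dusp1, Dusp4, Dusp5, Dusp6 and Dusp14 were all lower with TTX/NMDA than with TTX. In the LP, Dusp1 and Dusp6 were higher with NMDA, whereas Dusp4, Dusp8, Dusp14 and Dusp16 were lower. The counts were 0 higher and 5 lower in the SP, with 0.956% and 3.32% of all genes called. In the LP they were 2 higher and 4 lower, with 11.6% and 11.8% of all genes called (3807 and 3861 of 32852). Only 13592 genes had a mean of at least 1 CPM, so the LP counts are not read as particular to the members. No member was higher in the SP at an unadjusted p under 0.05 or with DESeq2. The median log2 fold change in the SP was 0.04 over all genes and -0.26 over the 10 members, and in the LP 0.11 and -0.22.

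The SP TTX/NMDA libraries held 12.97, 14.2, 12.98, 15.5 and 18.4 CPM of Dusp5, all below the SP TTX libraries (log2 fold change -1.01 ± 0.11, adjusted p = 2.4e-08). Dusp4 read 44.9, 65.7, 60.4, 76.7 and 57.3 CPM (log2 fold change -0.73 ± 0.09, adjusted p = 8.8e-07) and Dusp6 102, 120.4, 90.7, 105 and 104 CPM (log2 fold change -0.71 ± 0.07, adjusted p = 1.3e-08). All 3 were lower in each preparation and without overlap. Dusp1 (69.2, 87.3, 60.7, 95.3 and 62.9 CPM) was lower in each preparation too, with ranges that overlapped (log2 fold change -0.51 ± 0.09, adjusted p = 0.00056). Dusp14 fell by 0.32 on the log2 scale (adjusted p = 0.013), a call lost without preparation 7 (adjusted p = 0.054). Dusp8 was just outside the threshold (log2 fold change -0.21 ± 0.06, adjusted p = 0.057). It was called with pairing (log2 fold change -0.20, adjusted p = 0.014), with RLE normalization (adjusted p = 0.046), among expression-filtered genes (adjusted p = 0.026) and with DESeq2 (adjusted p = 0.0013).

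In the LP, NMDA brought Dusp1 to 183, 171, 172, 175 and 169 CPM, a narrow range that lay above every LP TTX library. The level was 4.63-fold that with TTX (log2 fold change 2.21 ± 0.11, adjusted p = 4.0e-15), and it was higher in 5 of 5 preparations. Dusp6 was at 154, 168, 174, 144 and 167 CPM, again without overlap and 2.30-fold higher (log2 fold change 1.20 ± 0.12, adjusted p = 6.9e-09). Dusp5 (21.9, 29.6, 30.4, 26.2 and 37.7 CPM) was higher in 3 of 5 preparations and was not called (log2 fold change 0.18 ± 0.12, adjusted p = 0.34), but pairing gave a call (log2 fold change 0.22, adjusted p = 0.014).

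The members that fell with NMDA in the LP were led by Dusp16, at 10.3, 9.08, 8.63, 10.4 and 10.4 CPM against 15.7 CPM or more in every LP TTX library (log2 fold change -0.88 ± 0.09, adjusted p = 2.6e-08). Dusp14 was at 36.2, 39.9, 42.5, 39.4 and 28.9 CPM, without overlap (log2 fold change -0.60 ± 0.09, adjusted p = 7.2e-06). Dusp4 (65.6, 106, 126, 107 and 80.5 CPM) was lower in each preparation, with overlap (log2 fold change -0.40 ± 0.11, adjusted p = 0.0075). Dusp8, nearly flat under Bic, had its lowest level here at 173, 184, 184, 187 and 199 CPM (log2 fold change -0.33 ± 0.06, adjusted p = 0.00023). Dusp7 (log2 fold change -0.15 ± 0.08, adjusted p = 0.22) and Dusp10 (log2 fold change -0.14 ± 0.13, adjusted p = 0.45) were not called.

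The cell type markers moved in the same comparison. All 5 astrocyte markers (Gfap, Aqp4, Slc1a3, Aldh1l1 and Gja1) were called higher, and their sum ranged from 680 to 1419 CPM in LP TTX/NMDA and from 384 to 798 CPM in LP TTX. Of the 6 neuronal markers 3 were called lower (Map2, Syt1 and Slc17a7), with a sum of 5125 to 5833 CPM against 6300.1 to 7172 CPM. The microglial sum was 5.47 to 7.73 CPM against 5.09 to 6.88 CPM, with C1qa called higher. Of the oligodendrocyte markers, the myelin genes Mbp (log2 fold change -0.01 ± 0.11, adjusted p = 0.95), Mog (0.54, adjusted p = 0.39) and Mobp (0.64, adjusted p = 0.31) were not called by edgeR, and pairing by preparation called Mobp higher. The part of these shifts in the Dusp changes was not tested. In the SP active comparison 0 of the 5 astrocyte markers were called by edgeR or DESeq2, or were at an unadjusted p under 0.05, and 1 was called with pairing by preparation. Among the neuronal markers Gad1 was higher there and Map2 and Slc17a7 were lower.

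The active effect differed between the protocols for 4 members, 3 with a positive difference (background 0.722%) and 1 with a negative one (background 1.85%). The LP minus SP difference was 2.74 for Dusp1 (SE 0.17, adjusted p = 1.7e-14), 1.93 for Dusp6 (SE 0.16, adjusted p = 6.0e-11) and 1.21 for Dusp5 (SE 0.18, adjusted p = 3.8e-05). It was -0.84 for Dusp16 (SE 0.14, adjusted p = 0.00011). Dusp14 was called with pairing only (log2 difference -0.28, adjusted p = 0.039; unpaired 0.31). For Dusp4, lower with NMDA in both protocols, the difference was 0.35 with an SE of 0.16 and was not called (adjusted p = 0.33). All 5 astrocyte markers had a positive difference at an unadjusted p under 0.05, of which edgeR called 0, DESeq2 1 and the paired fit 5, and their part in the members' differences was not tested.

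**Figure D4:**
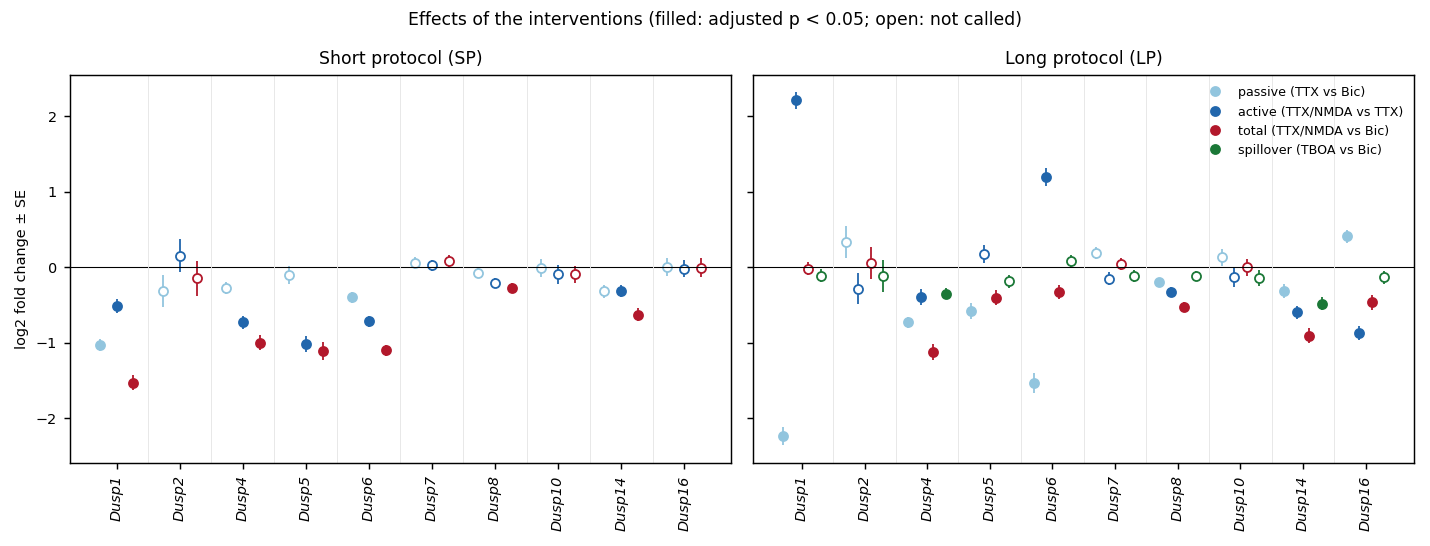
Log2 fold change with its standard error (y axis) of each Dusp gene (x axis) for the passive, active and total effects of the short protocol (left) and the long protocol (right), with the spillover effect of TBOA on the right; filled points passed an adjusted p of 0.05 and open points did not. In the long protocol the passive and active points of Dusp1 (-2.23 and 2.21) and Dusp6 lie on opposite sides of 0, whereas those of Dusp4 and Dusp14 lie on the same side.

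The total effect compares TTX/NMDA with Bic of equal length. In the SP, 6 members were lower and 0 higher (3.41% and 0.891% of all genes), with 0 higher also at an unadjusted p under 0.05 and with DESeq2. Of the 5 astrocyte markers edgeR called 0 higher (1 at an unadjusted p under 0.05, 0 with DESeq2) and the paired fit 4. Of the 6 neuronal markers Map2 (log2 fold change -0.30) and Slc17a7 (-0.37) were called lower, and the part of these markers was not tested. Dusp1 was at 35.3% ± 9.55 of its 1 h Bic level (log2 fold change -1.53 ± 0.10, adjusted p = 1.8e-14), Dusp6 at 47.2% ± 8.34, Dusp5 at 47.5% ± 7.11 and Dusp4 at 50.8% ± 11.96 (SD, n = 5), each lower in 5 of 5 preparations without overlap. Dusp14 (log2 fold change -0.63 ± 0.09, adjusted p = 3.9e-06) and Dusp8 (log2 fold change -0.27 ± 0.07, adjusted p = 0.0078) fell as well, Dusp8 not without preparation 6 (adjusted p = 0.053). The share of the Bic-induced rise that was present in SP TTX/NMDA was 8.59% ± 20.3 for Dusp4, 17.3% ± 8.89 for Dusp5, 29.5% ± 9.84 for Dusp1 and 31.02% ± 10.6 for Dusp6.

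In the LP, 6 members were lower and 0 higher, against 11.1% and 11.7% of all genes, and 0 were higher at an unadjusted p under 0.05 or with DESeq2. Dusp1 was not among them: it stood at 102% ± 16.3 of its 2 h Bic level, higher in 3 preparations and lower in 2 (log2 fold change -0.02 ± 0.08, adjusted p = 0.9). Dusp4 was at 46% ± 7.88 (log2 fold change -1.12 ± 0.11, adjusted p = 4.6e-10), Dusp14 at 54.7% ± 7.33 (log2 fold change -0.91 ± 0.10, adjusted p = 1.5e-08), Dusp8 at 70.2% ± 6.39 (log2 fold change -0.53 ± 0.07, adjusted p = 1.3e-07) and Dusp16 at 73.2% ± 7.98 (log2 fold change -0.46 ± 0.10, adjusted p = 0.00039), all without overlap. Dusp5 (log2 fold change -0.40 ± 0.11, adjusted p = 0.0042) and Dusp6 (log2 fold change -0.33 ± 0.09, adjusted p = 0.0055) were lower by less, Dusp6 not without preparation 1 (adjusted p = 0.058). All 5 astrocyte markers were called higher in this comparison too. Of the 6 neuronal markers Map2 (log2 fold change -0.45), Syt1 (-0.19) and Slc17a7 (-0.99) were called lower and Gad1 (0.26) higher, and the part of these shifts was not tested.

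Glutamate spillover with TBOA changed few of these genes. Dusp4 (138, 168, 156, 189 and 166 CPM) and Dusp14 (48.7, 51.6, 45.3, 55.5 and 43.9 CPM) were lower than with 2 h of Bic in 5 of 5 preparations, with overlapping groups, and no member was higher. These are 2 lower and 0 higher of 10, against 0.549% and 0.0536% of all genes, with 0 higher also at an unadjusted p under 0.05 and with DESeq2. The values were -0.35 ± 0.07 for Dusp4 (adjusted p = 0.01) and -0.48 ± 0.09 for Dusp14 (adjusted p = 0.0019) on the log2 scale. Neither was called among expression-filtered genes (adjusted p = 0.086 and 0.066), and Dusp4 was not without preparation 6 (adjusted p = 0.082). Dusp1 (log2 fold change -0.11 ± 0.08, adjusted p = 0.67) and Dusp6 (log2 fold change 0.08 ± 0.08, adjusted p = 0.69) were not called, and their TBOA libraries ranged from 141 to 177 CPM and from 191 to 230.5 CPM. The astrocyte marker sum was 583.6 to 883 CPM with TBOA and 412 to 743 CPM with 2 h of Bic (0 of 5 called by edgeR or DESeq2, 4 higher at an unadjusted p under 0.05), and its part was not tested.

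Compared to untreated neurons, 1 h after TTX was added in the LP 7 members were called higher and 1 lower (background 4.33% and 2.43%). Of the 7, Dusp10 and Dusp16 had not been called higher at 1 h of Bic, when TTX was added. Dusp14 (3.14-fold), Dusp16 (2.70-fold), Dusp5 (2.32-fold), Dusp4 (2.26-fold), Dusp1 (2.10-fold) and Dusp10 (1.84-fold) were higher in every preparation, and Dusp7 was lower in every one (log2 fold change -0.57 ± 0.09, adjusted p = 6.6e-06). Dusp6 was called (log2 fold change 0.40 ± 0.12, adjusted p = 0.039), but not with pairing (log2 fold change 0.36, adjusted p = 0.08), with DESeq2 (adjusted p = 0.11), among expression-filtered genes (adjusted p = 0.14) or without preparation 6 (log2 fold change 0.19, adjusted p = 0.43). In LP TTX/NMDA, 7 members were above control and 2 below (background 10.9% and 8.55%), the latter Dusp7 (log2 fold change -0.70 ± 0.09, adjusted p = 1.9e-07) and Dusp8 (log2 fold change -0.35 ± 0.08, adjusted p = 0.0012). Dusp2 joined them with pairing (log2 fold change -0.48, adjusted p = 0.046; unpaired 0.19). All 5 astrocyte markers were called higher than in the control in LP TTX/NMDA, and edgeR and DESeq2 called 0 in LP TTX (0 at an unadjusted p under 0.05). Of the neuronal markers, Map2 (log2 fold change -0.34) and Slc17a7 (-0.83) were called lower and Gad1 (0.46) higher in LP TTX/NMDA than in the control, and the part of these shifts was not tested.

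Ordered by mean level, Dusp1 went from Bic 1 h through Bic 2 h, LP TTX/NMDA and LP TBOA to SP TTX, Bic 0.5 h, SP TTX/NMDA, LP TTX and control. In this order LP TBOA and SP TTX, SP TTX/NMDA and LP TTX, and LP TTX and control had ranges that did not overlap, and all other neighbours overlapped. For Dusp6 the order was Bic 1 h, LP TBOA, Bic 2 h, SP TTX, LP TTX/NMDA, Bic 0.5 h, SP TTX/NMDA, LP TTX and control, and only Bic 0.5 h and SP TTX/NMDA were separate neighbours. Dusp4 ran from Bic 2 h over LP TBOA, LP TTX, Bic 1 h, SP TTX, LP TTX/NMDA, Bic 0.5 h and SP TTX/NMDA to control, with every pair of neighbours overlapping. Dusp5 had the order Bic 2 h, LP TBOA, Bic 1 h, SP TTX, LP TTX/NMDA, LP TTX, Bic 0.5 h, SP TTX/NMDA and control, in which only the last 2 were separate. Dusp14 ran from Bic 2 h over LP TTX, LP TBOA, LP TTX/NMDA, Bic 1 h, SP TTX, SP TTX/NMDA and Bic 0.5 h to control, with breaks after LP TBOA and after SP TTX. Dusp16 had breaks after LP TTX, after LP TBOA, which followed Bic 2 h, and after LP TTX/NMDA, and the last 5 conditions, SP TTX, Bic 1 h, SP TTX/NMDA, Bic 0.5 h and control, overlapped. Neighbouring conditions of Dusp2, Dusp7, Dusp8 and Dusp10 all overlapped.

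Over the 45 libraries, Dusp1 and Dusp6 had the most similar profiles within the group (Pearson r = 0.96 of log2(CPM + 1)), ahead of Dusp14 and Dusp16 (r = 0.86), Dusp4 and Dusp14 (r = 0.86) and Dusp4 and Dusp5 (r = 0.84), while Dusp1 and Dusp16 had an r of 0.05. Outside it, the genes most like Dusp1 were Btg2 (r = 0.98), Ccn1 (r = 0.95) and Gadd45g (r = 0.93), and those most like Dusp6 were Btg2 (r = 0.97), Ccn1 (r = 0.93) and Cbx8 (r = 0.90), among 13582 genes with a mean of at least 1 CPM. Erf (r = 0.97), Spry2 (r = 0.96) and Smad7 (r = 0.96) were closest to Dusp4, and Egr2 (r = 0.91), Fbxo33 (r = 0.91) and Rasl11b (r = 0.90) to Dusp5. For Dusp14 these were Ifrd1 (r = 0.98), Sap30 (r = 0.97) and 1190002N15Rik (r = 0.97), and for Dusp16 Zfp516 (r = 0.94), Ythdc1 (r = 0.93) and Aff1 (r = 0.93). These coefficients are descriptions, since the libraries share 9 conditions, 5 preparations and their depth.

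The genes of the MAP kinase cascades had few calls under Bic. Of 22 genes of the ERK cascade, from Ras proteins and their regulators to Mapk3, edgeR called 0 after 0.5 or 1 h (0 with DESeq2, and 1 at an unadjusted p under 0.05, at 1 h), against 4 and 5 of the 10 Dusp members. Of all genes, 0.289% and 0.965% were called higher at these times. After 2 h, 1 was higher (Rasgrf1, a calcium-dependent activator of Ras, log2 fold change 0.73 ± 0.13, adjusted p = 9.8e-05) and 1 lower (Nras, log2 fold change -0.24 ± 0.08, adjusted p = 0.039), with a median of 0.03, and pairing by preparation gave 3 higher and 2 lower. The edgeR counts of 1 and 1 of 22 were near the shares of all genes at 2 h, 4.24% higher and 4.78% lower. Of 21 genes of the JNK, p38 and ERK5 cascades, 2 were higher after 2 h (Map3k1 and Map3k5, both upstream kinases of the stress branch) and 0 lower (1 at an unadjusted p under 0.05, 0 with DESeq2, 1 with pairing). Of 16 other dual-specificity and tyrosine phosphatases, such as Dusp3, Ptpn5 and Ptprr, edgeR called 0 at any of the 3 times. At 2 h, 4 of these were lower at an unadjusted p under 0.05, DESeq2 called 2 lower, and pairing 4 lower and 1 higher.

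Among 18 MAP kinase substrates, 6 were higher after 2 h (Mknk2, Mapkapk2, Mapkapk3, Elk4, Srf and Jun) and 2 lower (Rps6ka5 and Creb1). Jun, which encodes a part of the AP-1 transcription factor, was the first of them and was higher already at 0.5 h (log2 fold change 1.13 ± 0.09, adjusted p = 5.3e-15). Of 11 other feedback inhibitors of the pathway, 5 were higher after 2 h and 1 lower. The counts of both lists stand beside 4.24% higher and 4.78% lower of all genes at 2 h. Errfi1, an inhibitor of the EGF receptor (log2 fold change 2.69 ± 0.08, adjusted p = 2.9e-24), and the Sprouty genes Spry1, Spry2, Spry3 and Spry4 rose, and Rasa1, which encodes a Ras GTPase-activating protein, fell (log2 fold change -0.24 ± 0.08, adjusted p = 0.044). All 8 immediate-early reference genes (Fos, Fosb, Junb, Egr1, Egr2, Arc, Npas4 and Nr4a1) were higher at each of the 3 times, with a median log2 fold change of 3.38, 4.44 and 4.89. Of all genes, 0.289%, 0.965% and 4.24% were called higher at these times.

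With TTX in the LP, 8 of 8 immediate-early reference genes were lower, against 1.62% of all genes. Their log2 fold changes had a median of -0.86 and a range from -0.48 for Egr2 to -1.96 for Nr4a1. Arc (-1.72) and Npas4 (-1.52) lay toward the lower end of that range, and the log2 fold change was -2.23 for Dusp1 and -1.53 for Dusp6. With NMDA added, Arc (log2 fold change 1.12 ± 0.11, adjusted p = 6.2e-09) and Nr4a1 (log2 fold change 1.33 ± 0.12, adjusted p = 1.9e-09) rose along with Dusp1 and Dusp6, Fosb fell (log2 fold change -0.58 ± 0.09, adjusted p = 2.0e-05), and the other 5 were not called, while pairing gave 5 higher and 1 lower. The other feedback inhibitors mostly fell in that comparison, 10 of 11, among them Sh2b3 (log2 fold change -0.78), Errfi1 (-0.70) and Spry4 (-0.50), and 1 rose (Spry1, log2 fold change 0.64 ± 0.12, adjusted p = 8.8e-05). In the ERK cascade 12 of 22 fell and 3 rose, with a median of -0.25. Map2k1, which encodes the kinase MEK1, was lower (log2 fold change -0.35 ± 0.06, adjusted p = 0.00013), as were Braf (-0.73) and Rasgrp1 (-1.18), and Hras, Rras and Shc1 were higher. In the JNK, p38 and ERK5 cascades 10 of 21 fell, Mapk8 and Map2k4 among them, and 2 rose (Mapk12 and Mapk13, of which pairing left 1). The last 2 were near the floor. From LP TTX to LP TTX/NMDA, Mapk12 went from 0.551 to 1.04 CPM and Mapk13 from 0.108 to 0.288 CPM. Among the substrates 8 of 18 fell and 3 rose, and among the other phosphatases 4 of 16 fell (Dusp3, Dusp18, Ptpn5 and Ptprr) and 4 rose (Dusp15, Dusp22, Dusp23 and Dusp26). These counts stand beside the LP active background of 11.8% lower and 11.6% higher, and beside the marker shifts given above.

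In the SP active comparison, with 3.32% of all genes called lower and 0.956% higher, 8 of 8 immediate-early reference genes fell with NMDA. So did 5 of 22 ERK cascade genes (Shc3, Rasgrp1 and Ksr2 among them; 8 with pairing), 3 of 18 substrates (Elk4, Srf and Jun; 5 with pairing) and 2 of 11 other feedback inhibitors (Spry2 and Errfi1; 4 with pairing). EdgeR and DESeq2 called 0 genes of these 4 lists higher, and 1 ERK cascade gene was higher at an unadjusted p under 0.05. The neuronal marker shifts given above for this comparison stand beside these counts, and their part was not tested. Of the 21 stress kinase genes edgeR and DESeq2 called 0 (4 lower at an unadjusted p under 0.05, 1 with pairing). Of the 16 other phosphatases edgeR called 0, DESeq2 1 higher and 1 lower, and pairing 2 and 2, while 3 and 3 were at an unadjusted p under 0.05. With TBOA, Spry2, Errfi1 and the stress kinase gene Map3k5 were lower (Map3k5 not with pairing), and edgeR called 0 genes of the other 4 lists, of which DESeq2 called 1 lower in the ERK cascade and 1 among the substrates, and pairing 2 and 1. At an unadjusted p under 0.05 the TBOA comparison had 5 of the 8 immediate-early reference genes lower, 1 gene of the ERK cascade, 2 substrates lower and 3 higher, and 1 other phosphatase lower. Of all genes, edgeR called 0.549% lower and 0.0536% higher with TBOA.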

How the data were processed

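Per the labels and the study's methods, poly-A RNA was made into strand-specific libraries and sequenced single-end for 75 cycles. The authors demultiplexed with bcl2fastq 2.20.0.422, aligned to GRCm38 with STAR 2.5.4b and counted uniquely assigned reads per Ensembl 94 gene by strand with featureCounts 1.6.5, and the deposited values are these raw counts.

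The counts were fitted here with edgeR 4.0.16 in R 4.3.3 (quasi-likelihood test, TMM, genes with at least 1 read, Benjamini-Hochberg adjustment over all genes), pair by pair as in the study's design, and over 20 libraries for differences between protocols. DESeq2 1.42.0, RLE scaling, filterByExpr, a block for the culture preparation with filterByExpr, and each preparation left out were alternatives. Pairing in the text means the block together with filterByExpr. Preparations shared across conditions pair the samples per the labels: deviations of same-numbered libraries correlated at a mean of 0.45 and others at -0.11. On simulated counts that carried a preparation effect, the fit without an expression filter made more false calls than the fit with the block and filterByExpr. FilterByExpr alone was not simulated, so the parts of the filter and the block cannot be told apart. Member calls that an alternative changed are given with that alternative.

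Members, lists and the named-gene rule (all 10 members, and for each member whose condition means span at least 1 log2 unit the 3 other genes with the highest Pearson r, plus the counts of each list) were chosen with earlier results of these data known. Genes named from the lists, and their values, were chosen after the fits. Values of some listed genes are not reported here, although the counts and sums of their lists include them. The library totals of 11316580 to 81129276 reads set the precision of low genes such as Dusp2.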

Additional observations from a re-analysis of the deposited data

Results flagged for a closer look

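In 9 of 90 groups of 5 libraries, 1 library stood apart by Dixon's test, which chance does in about 1 of 20 groups. Preparation 8 was the library in 6 of them. It was the highest for Dusp5 at 1 h of Bic (48.92 CPM, the others 25.91 to 29.64), Dusp7 in LP TTX (35.31, others 27.72 to 28.93), Dusp8 in SP TTX (245.0, others 237.8 to 239.9), and Dusp16 in the control (8.797, others 5.571 to 6.459) and at 0.5 h of Bic (7.58, others 6.126 to 6.512). It was the lowest for Dusp14 in LP TTX (45.68, others 56.5 to 60.8). Preparation 1 was the lowest for Dusp4 in SP TTX (86.6, others 101.3 to 106.7) and the highest for Dusp6 in the control (63.89, others 48.78 to 51.27). Preparation 6 was the highest for Dusp4 in LP TTX (144.5, others 120.2 to 125.7).

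The response to NMDA differed between the protocols for 4 members (LP minus SP, log2 scale, edgeR interaction): 2.736 for Dusp1 (adjusted p = 1.7e-14), 1.926 for Dusp6 (adjusted p = 6.0e-11), 1.207 for Dusp5 (adjusted p = 3.8e-05) and -0.8393 for Dusp16 (adjusted p = 0.00011). The response to TTX differed for 3, with -1.212 for Dusp1 (adjusted p = 5.8e-06), -1.138 for Dusp6 (adjusted p = 4.6e-05) and -0.4604 for Dusp4 (adjusted p = 0.045).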

How the results depend on the processing

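Among 119 log2 fold changes of members that were named or passed the test under any setting, direction and side of the threshold were kept by 118 with RLE scaling, 110 with filterByExpr, 113 with DESeq2, 104 with the block for the preparation, and between 112 and 116 with 1 preparation left out. With the replicate block and filterByExpr, 1 member was lower at 1 h of Bic instead of 0, 2 were higher in the LP passive effect instead of 1, 2 were higher in SP TTX compared to 0.5 h of Bic instead of 1, 5 were lower in LP TTX compared to 1 h of Bic instead of 3, and 2 had a negative difference in the active effect between protocols instead of 1. Over the single members, the block with filterByExpr added 13 calls and ended 1 (Dusp6 in LP TTX compared to control), each given in the report. It reversed the sign of 1 more of the 119, the LP total effect on Dusp1, and left 104 the same. The ended call and the added call of Dusp8 in the SP active effect also changed with filterByExpr alone. Between 1 and 2 h of Bic, 1 member was lower with filterByExpr and with DESeq2 instead of 2, and 1 to 2 with a preparation left out. In the spillover effect 0 were lower with filterByExpr (DESeq2 called 2) instead of 2, and 1 to 2 with a preparation left out. The SP passive effect gave 2 to 4 lower members with a preparation left out. SP TTX compared to 0.5 h of Bic gave 2 higher with DESeq2, and 1 to 2 with a preparation left out, and LP TTX compared to 1 h of Bic gave 2 to 4 lower. The LP total effect on Dusp1, -0.02 on the log2 scale and never called, changed sign to 0.0082 with filterByExpr, 0.0245 with the block, and lay between -0.0908 and 0.0769 with a preparation left out, at 0.0404 without preparation 1. Small differences that were never called also changed sign for Dusp4 in LP TTX compared to 1 h of Bic (-0.0035 to 0.106 with a preparation left out) and Dusp1 in SP TTX compared to 0.5 h of Bic (-0.116 to 0.0770). The cause of these changes was not tested.

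With plain library totals in place of TMM, 85 of 90 condition means moved by less than 1 SD. The others were Dusp1 and Dusp8 in LP TTX/NMDA, Dusp7 in SP TTX/NMDA, and Dusp8 and Dusp16 after 2 h of Bic, which moved by more. Depth limits Dusp2, and p-values over 5 preparations measure the spread between these cultures only.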
